A study of Homo sapiens with 12 samples.

Results

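The 33 genes described here are 23 genes of glycolysis, its regulation and the carriage of glucose and lactate, and 10 genes of the response to low oxygen. They were chosen by symbol and were looked up among the 23617 gene symbols of the Granta-519 table and the 23615 of the JeKo-1 table, where each stood on 1 row. Granta-519 and JeKo-1 are human cell lines of mantle cell lymphoma, a cancer of B cells whose hallmark translocation drives CCND1, the gene of the cell cycle regulator cyclin D1. The 4 groups, with 3 libraries each, were Granta-519 with an shRNA against cyclin D1 (shCycD1), Granta-519 with a control shRNA (shCtrl), JeKo-1 shCycD1 and JeKo-1 shCtrl. All 12 came from cells that had taken up an shRNA lentivirus and had been selected with puromycin, so the controls carry virus and selection as well. The hairpin sequences, the time from infection to harvest and whether the selected cells were a pool or a clone are not given in the sources used. Per the labels Granta-519 grew in RPMI and JeKo-1 in DMEM, so line and medium cannot be told apart in any difference between the lines.

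Glycolysis splits glucose into pyruvate in the cytoplasm and yields ATP and NADH. Lactate dehydrogenase turns pyruvate into lactate and regenerates NAD+, while pyruvate dehydrogenase sends it into mitochondrial oxidation. When oxygen is low, prolyl hydroxylases of the EGLN family no longer mark the transcription factor subunit HIF1A for destruction by the VHL ubiquitin ligase, and HIF1A with its partner ARNT then activates most glycolytic genes together with genes such as VEGFA, BNIP3 and NDRG1. Many of the glycolytic genes are also known targets of MYC.

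CCND1 was low in every silenced library. It had 213, 298 and 292 RPKM in Granta-519 shCycD1 libraries, against 924, 1043 and 874 RPKM in shCtrl libraries, and 65.4, 64.8 and 67.4 RPKM in JeKo-1 shCycD1 libraries, against 395, 330 and 315 RPKM in shCtrl libraries. RPKM is a read count scaled by gene length and library size. The log2 change of CCND1 was -1.83 ± 0.14 (SE) in Granta-519 and -2.38 ± 0.09 in JeKo-1, with limma adjusted p of 0.000257 and 1.96e-06. Of 9 B-cell markers, 8 in Granta-519 (all but CD5) and 9 in JeKo-1 had a mean of 1 RPKM or more, and of 8 T and NK cell markers 7 and 5 stayed under 1 RPKM in every library. So did 5 and 7 of 8 myeloid markers and 6 and 6 of 9 epithelial, fibroblast and embryonic kidney markers; a mean of 1 RPKM or more was reached by 2 and 1 of the myeloid and by 3 and 1 of the last list. The summed B-cell markers were 2409 to 2559 RPKM in Granta-519 shCycD1 libraries, against 3311 to 3506 RPKM in shCtrl libraries, and 1354 to 1524 RPKM in JeKo-1 shCycD1 libraries, against 1233 to 1451 RPKM in shCtrl libraries. The summed myeloid markers were 40.9 to 47.7 RPKM in Granta-519 shCycD1 libraries, against 46.9 to 52.8 RPKM in shCtrl libraries. The part of these markers in the results was not tested. The tables hold no read counts and depth was not recovered from them, so no interval from counting is given. Across genes, correlations within a group were 0.981 to 0.988 in Granta-519 and 0.968 to 0.974 in JeKo-1. Between shCycD1 and shCtrl libraries they were 0.954 to 0.962 in Granta-519 and 0.881 to 0.898 in JeKo-1. The summed RPKM of the spike-in RNAs (synthetic transcripts added to each sample) was 42458, 49079 and 45120 in Granta-519 shCycD1 libraries, against 62352, 103797 and 66560 in shCtrl libraries. The choice between the deposited scale and a spike-in scale moves every Granta-519 change upward, so values on the spike-in scale are given beside the Granta-519 decreases. On it CCND1 changed by -1.08 in Granta-519 and -2.44 in JeKo-1. JeKo-1 spike-in sums were 34611, 43636 and 58959 in shCycD1 libraries, against 38165, 51995 and 59248 in shCtrl libraries.

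The promoters of these genes are shown first, because HIF1A with ARNT is known to activate most glycolytic genes and yet the members moved in opposite directions. Whether HIF regulates each member in these cells was not tested. HIF binds the core ACGTG or GCGTG, and MYC with MAX binds CACGTG, a palindrome that holds the ACGTG core on both strands and so counts as 2 cores. Promoter windows of 300 bases, from 250 before to 50 after a start site, came from RefSeq on build GRCh38.p14 and covered 28 of the 33 genes in 55 windows. The files themselves were made on GRCh37, so no position from them is used. LDHA (chr11:18394313-18394612, plus strand), GAPDH (chr12:6535014-6535313, plus strand) and ENO1 (chr1:8878637-8878936, minus strand) stand for genes with lower RNA in JeKo-1 shCycD1 cells. ALDOC (chr17:28576846-28577145, minus strand) and BNIP3 (chr10:131981874-131982173, minus strand) stand for genes with higher RNA there, and P4HA1 (chr10:73096817-73097116, minus strand) is the member called in opposite directions in the 2 lines. All are written 5′ to 3′ on the strand of the gene, and capitals mark the HIF cores on either strand (CACGT and CACGC are the cores read on the other strand).
LDHA: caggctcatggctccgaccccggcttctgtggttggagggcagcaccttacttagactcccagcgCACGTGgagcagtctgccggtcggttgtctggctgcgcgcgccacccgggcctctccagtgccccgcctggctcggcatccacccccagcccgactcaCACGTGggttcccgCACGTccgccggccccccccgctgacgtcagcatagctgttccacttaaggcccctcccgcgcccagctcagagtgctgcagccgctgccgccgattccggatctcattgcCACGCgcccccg
GAPDH: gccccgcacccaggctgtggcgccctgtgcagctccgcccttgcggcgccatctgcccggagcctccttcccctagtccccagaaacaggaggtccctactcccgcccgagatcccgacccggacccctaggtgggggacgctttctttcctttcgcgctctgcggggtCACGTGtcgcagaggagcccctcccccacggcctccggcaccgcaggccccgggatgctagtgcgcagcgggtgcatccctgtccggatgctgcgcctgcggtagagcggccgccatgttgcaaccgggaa
ENO1: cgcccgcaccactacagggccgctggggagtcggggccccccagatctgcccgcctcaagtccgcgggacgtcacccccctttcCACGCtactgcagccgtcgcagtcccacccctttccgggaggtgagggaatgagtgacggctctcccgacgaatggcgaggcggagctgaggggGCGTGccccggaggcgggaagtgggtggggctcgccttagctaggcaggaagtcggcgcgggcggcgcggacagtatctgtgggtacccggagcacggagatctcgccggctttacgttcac
ALDOC: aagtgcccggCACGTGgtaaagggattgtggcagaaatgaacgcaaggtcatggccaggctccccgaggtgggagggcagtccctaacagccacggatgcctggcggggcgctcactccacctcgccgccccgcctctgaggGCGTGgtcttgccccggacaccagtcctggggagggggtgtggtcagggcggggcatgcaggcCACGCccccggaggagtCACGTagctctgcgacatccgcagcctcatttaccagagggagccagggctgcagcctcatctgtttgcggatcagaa
BNIP3: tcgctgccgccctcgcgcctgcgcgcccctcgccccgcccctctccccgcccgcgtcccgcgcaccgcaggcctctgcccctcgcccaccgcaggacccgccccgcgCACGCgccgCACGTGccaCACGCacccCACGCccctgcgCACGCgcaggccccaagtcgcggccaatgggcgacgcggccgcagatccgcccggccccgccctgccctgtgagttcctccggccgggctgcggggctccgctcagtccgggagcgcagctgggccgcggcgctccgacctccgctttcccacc
P4HA1: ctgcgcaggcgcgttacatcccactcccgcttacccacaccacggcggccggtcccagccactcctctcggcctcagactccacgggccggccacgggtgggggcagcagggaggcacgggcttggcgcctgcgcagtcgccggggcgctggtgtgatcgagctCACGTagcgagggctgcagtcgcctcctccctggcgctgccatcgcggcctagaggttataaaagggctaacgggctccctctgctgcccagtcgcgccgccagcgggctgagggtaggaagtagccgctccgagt

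Both directions of change were found with these letters. LDHA and BNIP3 each hold 6 cores, ALDOC holds 5, GAPDH and ENO1 hold 2 each and P4HA1 holds 1. CACGTG stands at 2 places in LDHA, at 1 each in GAPDH, ALDOC and BNIP3, and at none in the ENO1 and P4HA1 windows. At least 1 window held a core in 26 of the 28 members (92.9%), against 69.2% of 9470 genes with a window that were tested in either line. ACGTG alone was in 18 members (64.3%), against 32.1% of those genes, and CACGTG in 8 (28.6%), against 12.5%. Counted by window, a core was found in 36 of 55 member windows (65.5%), against 48.4% of all 35116 windows. Those windows include genes not tested, and a core was in 52.4% of all genes with a window. In the last 150 bases a core was in 32.7% of member windows, against 31.8% of all windows. A gene with several windows has more chances to hold a core. The median was 1 window for members and for genes tested, but HK1 and PFKM had 7 each. The 28 members had 55 windows, against 35116 windows for all 27305 genes with a window, so members had more windows per gene. How far this raised the shares of members with a core was not tested. Among members with a window, a core was present in 8 of 8 with higher RNA in JeKo-1 shCycD1 cells, in 8 of 10 with lower RNA and in 9 of 9 that were not called. SLC2A3, SLC16A1, BNIP3L, VEGFA and NDRG1 had no window. Of these, SLC2A3, VEGFA and NDRG1 were called higher in JeKo-1 and are missing from the 8, while no member called lower there is missing. A core is a match of letters and not a binding site.

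In each line the 33 genes divided between higher and lower RNA after silencing. Tested genes had 1 RPKM or more in 3 or more of a line's 6 libraries, and were called at a limma adjusted p under 0.05 over all genes tested. In Granta-519, 32 members were tested, 8 were called higher (22.4% of all 12668 genes tested were) and 5 lower (18.2% of all genes). The other 19 were not called, and the median log2 change of the 32 was 0.09, against 0.03 for all genes. In JeKo-1, 32 members were tested, 11 were called higher (36.7% of all 11866 genes) and 10 lower (27.8% of all genes). There 11 were not called, and the median was -0.01, against 0.09 for all genes. Both shares in Granta-519 and both in JeKo-1 lay close to those of all genes. The RNA was from whole cultures, so fewer cells of a type and less RNA per cell cannot be told apart.

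The glycolysis and transport genes and the hypoxia genes were also counted apart, and the difference between these subgroups was not tested. Of 22 glycolysis and transport genes tested in Granta-519, 3 were called higher and 4 lower with a median of 0.02, and of 23 in JeKo-1, 7 were called higher and 8 lower with a median of -0.12. Of the 10 hypoxia genes tested in Granta-519, 5 were called higher and 1 lower with a median of 0.34, and of 9 in JeKo-1, 4 were called higher and 2 lower with a median of 0.25. These counts stand against 22.4% higher and 18.2% lower of all genes in Granta-519, with a median of 0.03, and 36.7% and 27.8% in JeKo-1, with a median of 0.09. The values of shCycD1 and shCtrl libraries did not overlap for 11 higher and 6 lower members in Granta-519 (54% of all genes did not overlap in either direction) and for 12 higher and 13 lower members in JeKo-1 (69.6% of all genes).

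**Figure D1:**
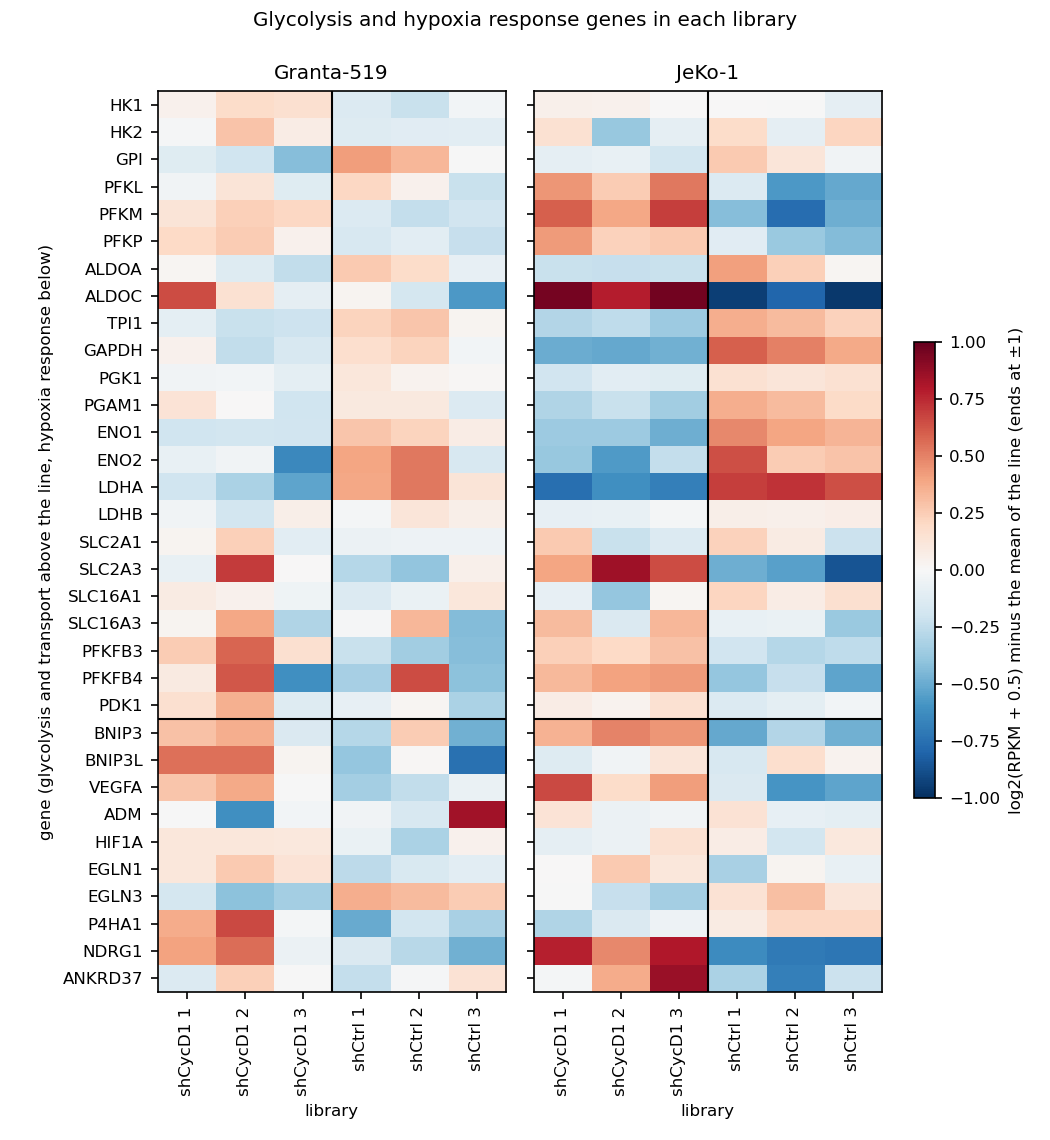
Each row is a gene and each column a library, with the 3 shCycD1 libraries left of the 3 shCtrl libraries for each line; color is log2(RPKM + 0.5) minus the mean of the 6 libraries of the line, and ends at ±1. ALDOC, SLC2A3 and NDRG1 are red in the shCycD1 libraries of JeKo-1 where LDHA, GAPDH and ENO1 are blue, and the Granta-519 contrasts are paler.

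One Granta-519 replicate number stood apart for these genes. Replicate 3 was the lowest library of both shCycD1 and shCtrl for 15 of the 32 members tested (46.9%), against 8.68% of all genes tested, and replicate 2 was the highest of both for 8 (25%), against 6.92%. LDHA, GPI, ALDOC, BNIP3, BNIP3L and NDRG1 were among the 15. When the fit held a block for replicate number, ALDOC was called higher and ENO2 lower in Granta-519 (limma adjusted p of 0.0205 and 0.0145). TPI1 and VEGFA were not called with that block (0.0579 and 0.0786). Without replicate 3 of both groups, an alternative chosen after seeing the data, 5 members were called higher and 5 lower in Granta-519. The calls of PFKM, PFKP, TPI1 and EGLN1 were then lost at log2 changes of 0.37, 0.36, -0.41 and 0.39, and ENO2 was called lower.

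Hexokinase catalyses the first step, and neither hexokinase gene was called in either line. HK1 had 5.26, 5.83 and 5.75 RPKM in Granta-519 shCycD1 libraries, against 4.57, 4.3 and 4.98 RPKM in shCtrl libraries, which did not overlap but missed the threshold (log2 change 0.26 ± 0.09, adjusted p = 0.0572). HK2, the inducible form, had a log2 change of 0.23 in Granta-519 (adjusted p = 0.0891) and -0.21 in JeKo-1 (adjusted p = 0.266), and HK1 one of 0.06 in JeKo-1 (adjusted p = 0.454). GPI, which isomerises the hexokinase product, had 46.8, 44.3 and 37.9 RPKM in Granta-519 shCycD1 libraries, against 68.5, 64.2 and 50.9 RPKM in shCtrl libraries. GPI fell by 0.50 on the log2 scale (SE 0.13, adjusted p = 0.0236) as deposited and was 0.25 and not called with spike-in scaling. In JeKo-1 GPI was at -0.23 (adjusted p = 0.0559).

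PFKM and PFKP rose in Granta-519, and all 3 phosphofructokinase genes rose in JeKo-1. Phosphofructokinase commits sugar to glycolysis, and PFKL, PFKM and PFKP encode its liver, muscle and platelet subunits. In Granta-519, PFKM had 25.4, 27.4 and 26.9 RPKM in shCycD1 libraries, against 21, 19.6 and 20.2 RPKM in shCtrl libraries (0.38 ± 0.07, adjusted p = 0.00527), and PFKP changed by 0.33 ± 0.09 (adjusted p = 0.0216). PFKL was not called there, with a log2 change of -0.02 (0.73 with spike-in scaling) and overlapping groups. In JeKo-1, PFKM had 88.9, 76.9 and 95.3 RPKM in shCycD1 libraries, against 43.5, 34.4 and 41.7 RPKM in shCtrl libraries, and rose by 1.12 ± 0.12 (adjusted p = 0.000167), the largest of the 3 subunits. PFKL had 61.2, 53.8 and 65 RPKM in shCycD1 libraries, against 40.9, 30.1 and 31.4 RPKM in shCtrl libraries (0.81 ± 0.13, adjusted p = 0.00129). PFKP had 55.4, 48.3 and 49.4 RPKM in shCycD1 libraries, against 38, 31.6 and 30.4 RPKM in shCtrl libraries (0.61 ± 0.10, adjusted p = 0.00169). None of the 3 overlapped between groups in JeKo-1. PFKM shares 628 exonic bases with SENP1 on the opposite strand, a gene with log2 changes of -0.37 in Granta-519 and -1.14 in JeKo-1. Whether strand was used in counting is not given in the sources used.

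PFKFB3 and PFKFB4 make the sugar bisphosphate that activates phosphofructokinase. PFKFB3 had 2.11, 2.79 and 1.95 RPKM in Granta-519 shCycD1 libraries, against 1.38, 1.22 and 1.13 RPKM in shCtrl libraries (0.67 ± 0.13, adjusted p = 0.00802). In JeKo-1 it had 14.1, 13.7 and 14.6 RPKM in shCycD1 libraries, against 10.3, 9.66 and 9.85 RPKM in shCtrl libraries (0.49 ± 0.08, adjusted p = 0.0011). The groups were apart in both lines, and the 2 changes differed by 0.18 ± 0.15 (adjusted p = 0.372). PFKFB4 was tested in JeKo-1 alone, with 1.56, 1.67 and 1.71 RPKM in shCycD1 libraries, against 0.757, 0.899 and 0.642 RPKM in shCtrl libraries (0.76 ± 0.11, adjusted p = 0.000705). It reached the minimum only through the shCycD1 libraries, so it had to differ to be tested. In Granta-519 PFKFB4 ranged from 0.367 to 1.54 RPKM in shCycD1 libraries, against 0.501 to 1.59 RPKM in shCtrl libraries.

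**Figure D2:**
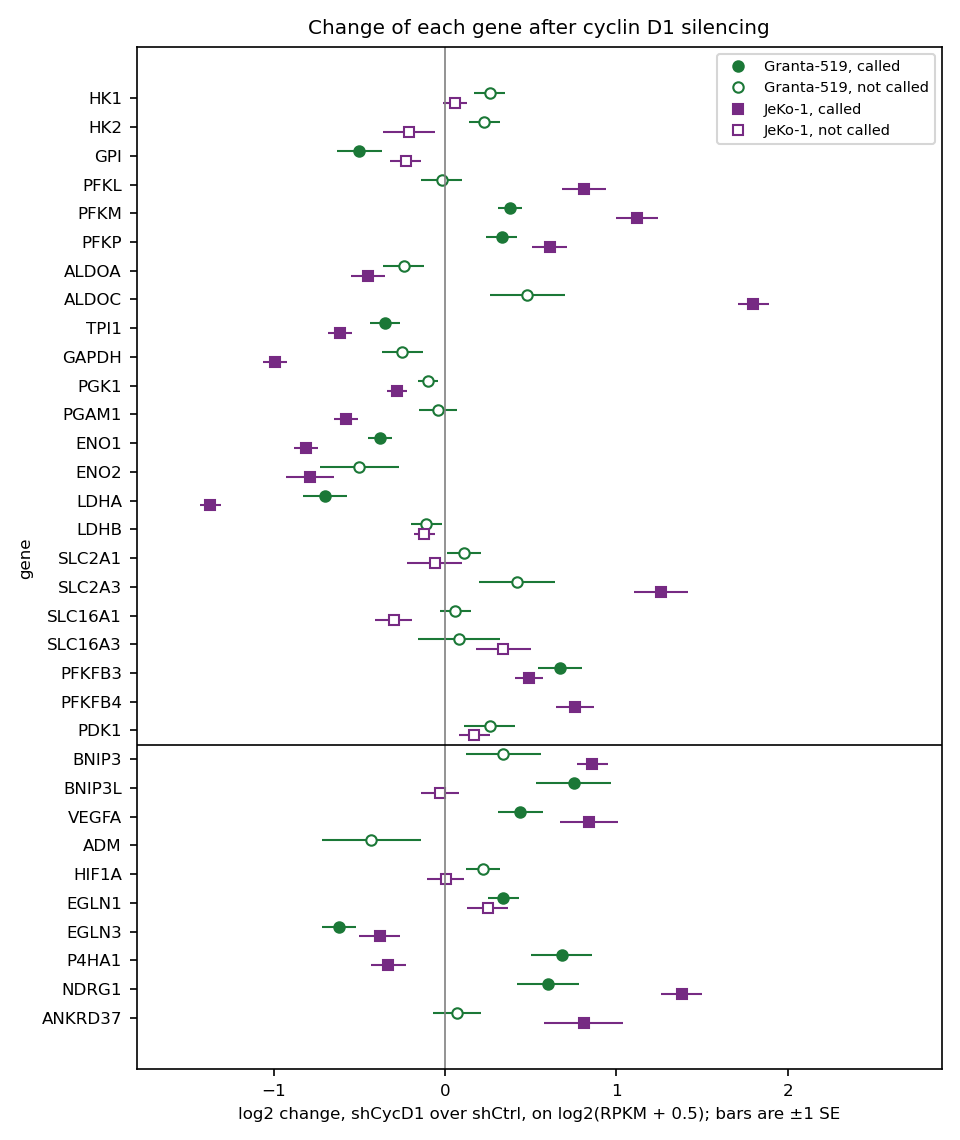
Points are log2 changes of shCycD1 over shCtrl with bars of ±1 SE (n = 3 libraries a group), circles for Granta-519 and squares for JeKo-1; filled points passed the adjusted p threshold of 0.05 on the deposited scale. In Granta-519 the change runs from -0.70 for LDHA (0.05 with spike-in scaling) to 0.75 for BNIP3L, and in JeKo-1 from -1.37 for LDHA to 1.80 for ALDOC.

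The aldolase genes ALDOA and ALDOC moved apart in JeKo-1. Aldolase cleaves the hexose bisphosphate; ALDOA is the muscle and general form and ALDOC the form best known from brain. In Granta-519 ALDOC was at 0.48 ± 0.22 (adjusted p = 0.127), with 422, 298 and 252 RPKM in shCycD1 libraries, against 273, 237 and 180 RPKM in shCtrl libraries, which overlapped. ALDOA was at -0.24 there (adjusted p = 0.145; 0.51 with spike-in scaling). ALDOC had 33.5, 29.6 and 33.6 RPKM in JeKo-1 shCycD1 libraries, against 8.62, 9.57 and 8.44 RPKM in shCtrl libraries, a rise of 1.80 ± 0.09 (adjusted p = 5.5e-06) and the largest of the members. ALDOA had 518 to 521 RPKM in the 3 shCycD1 libraries, against 807, 714 and 616 RPKM in shCtrl libraries, and fell by 0.45 (SE 0.10, adjusted p = 0.00569). Neither gene's groups overlapped in JeKo-1.

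From triose phosphate to pyruvate, 2 members passed the test in Granta-519. ENO1, the general enolase, had 256, 258 and 257 RPKM in shCycD1 libraries, against 356, 342 and 309 RPKM in shCtrl libraries; it fell by 0.38 (SE 0.07, adjusted p = 0.00702) as deposited and stood at 0.37 with spike-in scaling. TPI1, which interconverts the triose phosphates, had 1075, 986 and 993 RPKM in shCycD1 libraries, against 1341, 1389 and 1174 RPKM in shCtrl libraries, with a change of -0.35 ± 0.09 (adjusted p = 0.0199) as deposited and 0.40 with spike-in scaling. Neither overlapped between groups. GAPDH, the dehydrogenase that yields NADH, was at -0.25 ± 0.12 (adjusted p = 0.133; 0.51 with spike-in scaling), with overlapping groups of 6543, 5363 and 5700 RPKM in shCycD1 libraries, against 7173, 7442 and 6242 RPKM in shCtrl libraries. PGK1, PGAM1 and ENO2 had log2 changes of -0.10, -0.04 and -0.50 with adjusted p of 0.243, 0.813 and 0.127, against 0.65, 0.71 and 0.25 with spike-in scaling.

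All 6 of these enzymes were called lower in JeKo-1. GAPDH had 1611, 1596 and 1629 RPKM in shCycD1 libraries, against 3445, 3232 and 2965 RPKM in shCtrl libraries, and fell by 0.99 (SE 0.07, adjusted p = 3.13e-05) to 0.50 of the shCtrl level. ENO1 had 551, 549 and 505 RPKM in shCycD1 libraries, against 987, 930 and 894 RPKM in shCtrl libraries (-0.81 ± 0.07, adjusted p = 6.55e-05). TPI1 had 462, 474 and 439 RPKM in shCycD1 libraries, against 730, 706 and 663 RPKM in shCtrl libraries (-0.61 ± 0.07, adjusted p = 0.000191). All 3 genes were lower in every silenced library without overlap. PGAM1, the mutase between them, had 182, 192 and 176 RPKM in shCycD1 libraries, against 288, 280 and 256 RPKM in shCtrl libraries (-0.58 ± 0.07, adjusted p = 0.000349). ENO2, the enolase of neurons, had 2.35, 2 and 2.65 RPKM in shCycD1 libraries, against 5.28, 3.93 and 4.01 RPKM in shCtrl libraries (-0.79 ± 0.14, adjusted p = 0.00223). PGK1, which catalyses an ATP-yielding step, was at 252, 268 and 265 RPKM in shCycD1 libraries, against 320, 314 and 320 RPKM in shCtrl libraries (-0.28 ± 0.06, adjusted p = 0.004). The PGK1 call was lost with quantile normalization (-0.05) and with correction for GC content (-0.10). With spike-in scaling ENO1, TPI1, PGAM1 and PGK1 had changes of -0.86, -0.67, -0.64 and -0.34 and were not called. The windows of GAPDH, TPI1 (chr12:6867281-6867580) and ENO2 (chr12:6914330-6914629) lie near each other on chromosome 12 in GRCh38.p14. GAPDH, ENO1, PGAM1, TPI1, PGK1 and LDHA have processed pseudogenes with near-identical sequence, so their RPKM depend on how reads with several matches were counted.

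LDHA, the muscle-type subunit of lactate dehydrogenase, had the largest fitted decrease among the members in both lines, in Granta-519 on the deposited scale alone. The pseudocount added before the log understates the change of EGLN3 (-0.62 in Granta-519), a low gene. Its means there were 1.19 RPKM in shCycD1 and 2.1 RPKM in shCtrl libraries. So the Granta-519 rank of LDHA above EGLN3 is given for the fitted changes only. In Granta-519 LDHA had 421, 388 and 335 RPKM in shCycD1 libraries, against 634, 697 and 530 RPKM in shCtrl libraries. LDHA fell by 0.70 there (SE 0.13, adjusted p = 0.00563) as deposited, and with spike-in scaling its change was 0.05. In JeKo-1 it had 287, 315 and 300 RPKM in shCycD1 libraries, against 780, 799 and 754 RPKM in shCtrl libraries, and fell by 1.37 (SE 0.06, adjusted p = 4.08e-06) to 0.39 of the shCtrl level. The groups were apart in both lines. LDHB, the heart-type subunit, was in Granta-519 at -0.11 (adjusted p = 0.348; 0.64 with spike-in scaling), with overlapping groups. It had 509, 512 and 532 RPKM in JeKo-1 shCycD1 libraries, against 561, 560 and 564 RPKM in shCtrl libraries, without overlap but under the threshold (-0.12, adjusted p = 0.1). PDK1, the kinase that switches off pyruvate dehydrogenase and a known HIF target, was called in neither line in the main fits. Its log2 changes were 0.26 for Granta-519 and 0.17 for JeKo-1, with limma adjusted p of 0.213 and 0.121. After correction for GC content PDK1 was called higher in JeKo-1, with a change of 0.47 (limma adjusted p = 0.00174).

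Of the 4 carrier genes only SLC2A3 in JeKo-1 passed the test. SLC2A3, the high-affinity glucose carrier GLUT3, had 5.24, 9.28 and 5.55 RPKM in Granta-519 shCycD1 libraries, against 4.46, 4.09 and 5.76 RPKM in shCtrl libraries, with overlap (0.42 ± 0.22, adjusted p = 0.18). In JeKo-1 it had 2.65, 3.81 and 3.25 RPKM in shCycD1 libraries, against 1.21, 1.14 and 0.813 RPKM in shCtrl libraries, without overlap (1.26 ± 0.16, adjusted p = 0.000354). SLC2A1, the widespread glucose carrier GLUT1, was at 0.11 in Granta-519 and -0.06 in JeKo-1, with adjusted p of 0.417 and 0.754. SLC16A1 and SLC16A3 encode the lactate carriers MCT1 and MCT4. SLC16A1 had a log2 change of 0.06 in Granta-519, under the threshold (adjusted p = 0.646). It had 26.2, 21.2 and 28.2 RPKM in JeKo-1 shCycD1 libraries, against 32.3, 29.3 and 31.1 RPKM in shCtrl libraries, which did not overlap (-0.30 ± 0.11, adjusted p = 0.0512). SLC16A3 had log2 changes of 0.08 in Granta-519 and 0.34 in JeKo-1, with adjusted p of 0.817 and 0.0948, and shares 482 exonic bases with CSNK1D on the opposite strand.

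Among the oxygen sensors, EGLN3 was lower in both lines (in Granta-519 on the deposited scale, 0.13 with spike-in scaling) and EGLN1 was higher in Granta-519. HIF1A itself was not called, with 28.9, 28.9 and 28.8 RPKM in Granta-519 shCycD1 libraries, against 25.5, 21.4 and 27.6 RPKM in shCtrl libraries (0.22 ± 0.10, adjusted p = 0.122), and 14.9, 15.2 and 17.7 RPKM in JeKo-1 shCycD1 libraries, against 16.7, 13.9 and 17.1 RPKM in shCtrl libraries (adjusted p = 0.979). With correction for GC content HIF1A was called higher in JeKo-1 at 0.39. EGLN3, an inducible prolyl hydroxylase, had 1.35, 1.07 and 1.15 RPKM in Granta-519 shCycD1 libraries, against 2.19, 2.11 and 1.99 RPKM in shCtrl libraries. It fell by 0.62 there (SE 0.10, adjusted p = 0.00303) as deposited and stood at 0.13 with spike-in scaling. In JeKo-1 EGLN3 had 6.47, 5.44 and 5.01 RPKM in shCycD1 libraries, against 7.19, 8.1 and 7.1 RPKM in shCtrl libraries (-0.38 ± 0.12, adjusted p = 0.0222). EGLN1, the main prolyl hydroxylase acting on HIF1A, had 7.13, 7.93 and 7.24 RPKM in Granta-519 shCycD1 libraries, against 5.37, 5.85 and 6.06 RPKM in shCtrl libraries (0.34 ± 0.09, adjusted p = 0.019). In JeKo-1 it was at 0.25 ± 0.12 (adjusted p = 0.11) and was called higher with correction for GC content (0.41).

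BNIP3 and BNIP3L, paralogs that direct mitochondria to autophagy, each passed the test in 1 line. BNIP3 had overlapping groups in Granta-519, where the change was 0.34 (adjusted p = 0.247). In JeKo-1 it had 50.8, 56.2 and 54.2 RPKM in shCycD1 libraries, against 27.7, 32.3 and 28.3 RPKM in shCtrl libraries, without overlap (0.86 ± 0.09, adjusted p = 0.000131). BNIP3L had 25.5, 25.6 and 17.6 RPKM in Granta-519 shCycD1 libraries, against 13.1, 17.4 and 10.1 RPKM in shCtrl libraries, a narrow gap between the groups (0.75 ± 0.22, adjusted p = 0.0341). In JeKo-1 BNIP3L was at -0.03 (adjusted p = 0.851), and at 0.29 with correction for GC content. BNIP3L shares 330 exonic bases with PNMA2 on the opposite strand, whose log2 change was 0.72 in Granta-519 and 0.30 in JeKo-1.

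Of the secreted factors, VEGFA was called higher in both lines. VEGFA, the vascular growth factor, had 9.66, 10.4 and 7.84 RPKM in Granta-519 shCycD1 libraries, against 6.12, 6.54 and 7.47 RPKM in shCtrl libraries (0.44 ± 0.13, adjusted p = 0.0315). In JeKo-1 it had 7.57, 5.32 and 6.31 RPKM in shCycD1 libraries, against 4.13, 2.89 and 3.05 RPKM in shCtrl libraries (0.84 ± 0.17, adjusted p = 0.00331). VEGFA values did not overlap in either line. ADM, the vasodilator peptide adrenomedullin, was tested in Granta-519 alone, at -0.43 ± 0.29 (adjusted p = 0.284; 0.33 with spike-in scaling), and in JeKo-1 ranged from 0.487 to 0.628 RPKM in shCycD1 libraries, against 0.462 to 0.635 RPKM in shCtrl libraries.

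Of the remaining hypoxia genes, NDRG1 was higher in both lines and P4HA1 went opposite ways. NDRG1, a stress-induced protein, had 1.74, 1.99 and 1.13 RPKM in Granta-519 shCycD1 libraries, against 1.03, 0.899 and 0.718 RPKM in shCtrl libraries (0.60 ± 0.18, adjusted p = 0.0336). In JeKo-1 it had 3.13, 2.46 and 3.2 RPKM in shCycD1 libraries, against 0.868, 0.796 and 0.786 RPKM in shCtrl libraries (1.38 ± 0.12, adjusted p = 6.32e-05). There NDRG1 reached the minimum for testing only through the shCycD1 libraries. In Granta-519 its shCtrl libraries at 0.899 and 0.718 RPKM also fell short of 1 RPKM. So NDRG1 would not have been tested in either line without its high shCycD1 libraries. P4HA1, a subunit of the prolyl hydroxylase that acts on collagen, had 4.07, 5.08 and 2.97 RPKM in Granta-519 shCycD1 libraries, against 1.99, 2.6 and 2.31 RPKM in shCtrl libraries (0.68 ± 0.18, adjusted p = 0.0248). In JeKo-1 P4HA1 had 6.14, 6.88 and 7.38 RPKM in shCycD1 libraries, against 8.14, 8.94 and 8.95 RPKM in shCtrl libraries (-0.33 ± 0.10, adjusted p = 0.0199), and both lines were without overlap. The JeKo-1 call of P4HA1 was lost with correction for GC content (-0.07). ANKRD37, an ankyrin repeat protein induced by HIF, was at 0.07 in Granta-519 (adjusted p = 0.725). It had 2.69, 3.69 and 5.38 RPKM in JeKo-1 shCycD1 libraries, against 2.1, 1.51 and 2.28 RPKM in shCtrl libraries, without overlap (0.81 ± 0.23, adjusted p = 0.0172). ANKRD37 shares 909 exonic bases with UFSP2 on the opposite strand, a gene at -0.81 in JeKo-1.

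Most Granta-519 calls were lost when a single library was left out, and most JeKo-1 calls were not. Of the 13 Granta-519 calls, PFKM, ENO1, LDHA, PFKFB3 and EGLN3 held without any 1 of the 6 libraries. GPI lost its call without shCycD1 2 or 3 or shCtrl 1 or 2 (-0.52 to -0.41), and TPI1 without shCycD1 2 or 3 or shCtrl 1 (-0.33 each). PFKP lost it without shCycD1 1 or 2 or shCtrl 1 or 3 (0.28 to 0.33), and EGLN1 without any shCycD1 library or shCtrl 1 (0.29 to 0.37). VEGFA lost it without shCycD1 1 or 2 or shCtrl 1 or 2 (0.36 to 0.42). BNIP3L and P4HA1 lost it without shCycD1 1 or 2 or shCtrl 1 or 3 (0.56 to 0.74 and 0.51 to 0.68). NDRG1 lost it without shCycD1 1 or 2 or shCtrl 2 or 3 (0.47 to 0.61). In JeKo-1, EGLN3 lost its call without shCycD1 2 or 3 or shCtrl 2 (-0.36 to -0.31), P4HA1 without shCycD1 1 or shCtrl 2 or 3 (-0.31 to -0.27) and ANKRD37 without shCtrl 2 (0.67). The other 18 JeKo-1 calls held without any 1 library. Fewer libraries also mean a less sensitive test.

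The numbers of members called in both lines were close to the shares of all genes. Of 31 members tested in both lines, PFKM, PFKP, PFKFB3, VEGFA and NDRG1 were called higher in both (5, against 14.8% of all 10653 genes). NDRG1 met the minimum for testing in each line through its shCycD1 libraries. TPI1, ENO1, LDHA and EGLN3 were called lower in both (4, against 13.1% of all genes), in Granta-519 on the deposited scale and not with spike-in scaling. P4HA1 was called in opposite directions (1, against 2.99% of all genes). A joint test of the difference, Granta-519 change minus JeKo-1 change, called 6 members higher (19.3% of all genes) and 5 lower (22.6% of all genes).

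The members with a called difference were mostly those with the larger JeKo-1 change. The difference was 0.75 ± 0.14 for GAPDH (adjusted p = 0.00137), 0.67 ± 0.15 for LDHA (adjusted p = 0.00407), 0.54 ± 0.14 for PGAM1 (adjusted p = 0.00822) and 0.43 ± 0.10 for ENO1 (adjusted p = 0.00597), so these 4 were reduced more in JeKo-1. It was -1.32 ± 0.25 for ALDOC (adjusted p = 0.00168), -0.83 ± 0.19 for PFKL (adjusted p = 0.005), -0.78 ± 0.22 for NDRG1 (adjusted p = 0.0144), -0.74 ± 0.14 for PFKM (adjusted p = 0.00158) and -0.84 ± 0.29 for SLC2A3 (adjusted p = 0.0359), so these 5 were raised more in JeKo-1. P4HA1 at 1.01 ± 0.22 (adjusted p = 0.00317) and BNIP3L at 0.77 ± 0.26 (adjusted p = 0.0351) were raised more in Granta-519. GAPDH and P4HA1 kept their calls under every alternative in which they were tested. With spike-in scaling the differences of PFKL, PFKM, ALDOC, SLC2A3 and NDRG1 were -0.02, 0.07, -0.51, -0.03 and 0.03 and not called. If the JeKo-1 table is in log2, the differences of ENO1, LDHA, SLC2A3 and NDRG1 were 0.18, 0.26, -0.53 and -0.44 and not called. Quantile normalization ended the calls of PGAM1 (0.29), ENO1 (0.22) and SLC2A3 (-0.67), and GC correction those of PFKL (-0.34) and BNIP3L (0.48).

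SLC2A3 and BNIP3L had the least stable differences. The SLC2A3 call was lost without Granta-519 shCycD1 1 or 3 or shCtrl 1 or 3, or JeKo-1 shCycD1 2 or 3 or shCtrl 3, with values of -0.88 to -0.70, and without replicate 3 of both Granta-519 groups (-0.61). The BNIP3L call was lost without Granta-519 shCycD1 1 or 2 or shCtrl 1 or 3, or JeKo-1 shCycD1 1 or 2 or shCtrl 2 or 3, with values of 0.59 to 0.77.

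Ratios of partner genes were taken within a library, after adding 0.5 to the RPKM of each gene. For genes well above 0.5 RPKM they hardly depend on the scaling of that library. For low genes such as SLC2A3 in JeKo-1 and PFKFB3 in Granta-519 the added 0.5 understates the change of the ratio. The log2 ratio of LDHA to LDHB was 0.59, 0.63 and 0.17 in Granta-519 shCycD1 libraries, against 1.17, 1.16 and 0.84 in shCtrl libraries, a change of -0.59 ± 0.18 (SE) to 0.66 of the shCtrl ratio. In JeKo-1 it was -0.82, -0.70 and -0.82 in shCycD1 libraries, against 0.48, 0.51 and 0.42 in shCtrl libraries, a change of -1.25 ± 0.05 to 0.42 of the shCtrl ratio. So LDHA was reduced relative to LDHB in every silenced library of both lines. The ratio of ALDOC to ALDOA changed by 0.72 ± 0.16 in Granta-519 (1.65-fold higher) and by 2.25 ± 0.13 in JeKo-1 (4.75-fold higher), without overlap. PFKM to PFKL changed by 0.40 ± 0.13 in Granta-519 and 0.30 ± 0.09 in JeKo-1, again without overlap. BNIP3 to BNIP3L went opposite ways, by -0.40 ± 0.06 in Granta-519 and 0.89 ± 0.08 in JeKo-1, without overlap in either line. PFKFB3 to HK2 changed by 0.43 ± 0.09 in Granta-519 and 0.69 ± 0.17 in JeKo-1. The ratios of PFKM to PFKP, SLC2A3 to SLC2A1 and SLC16A3 to SLC16A1 overlapped between groups in Granta-519 (0.05, 0.31 and 0.02) and did not in JeKo-1 (0.51 ± 0.13, 1.32 ± 0.28 and 0.64 ± 0.12). With 3 libraries against 3, an exact two-sided permutation test of such a ratio cannot go below p = 0.10, so none is given.

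**Figure D3:**
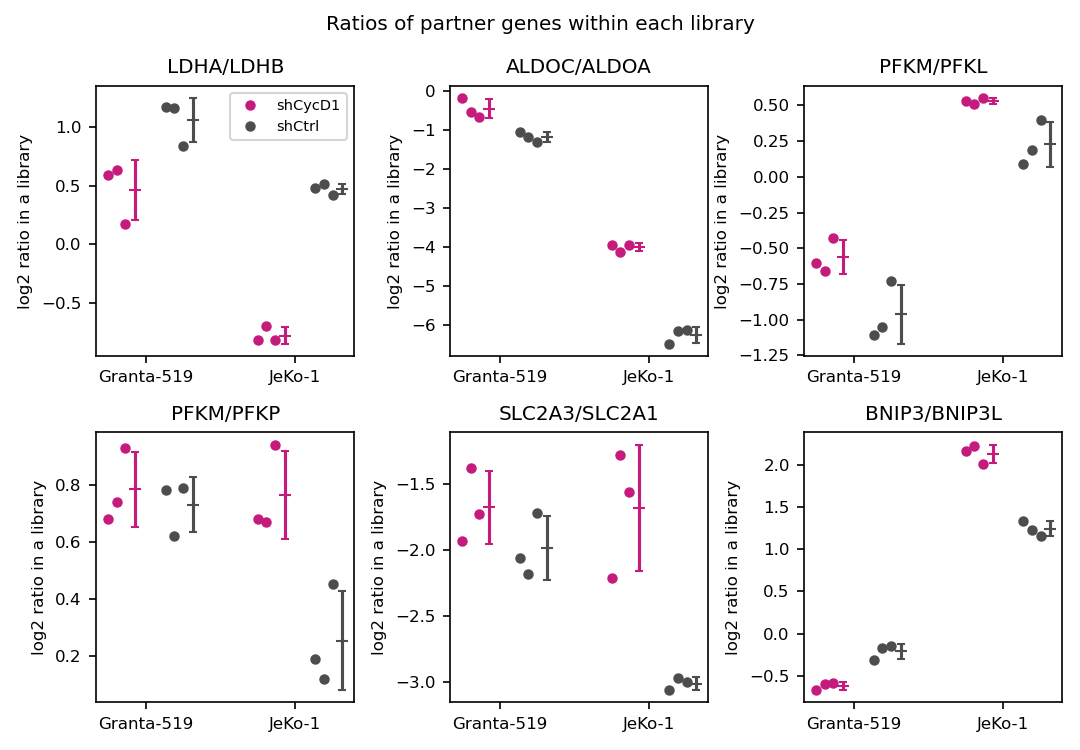
The log2 ratio of 2 genes in each library (RPKM + 0.5 for each gene) is drawn as a point, shCycD1 left of shCtrl in each line. A dash and bar give the mean and SD of 3 libraries. LDHA/LDHB is lower and ALDOC/ALDOA higher in shCycD1 libraries of both lines, and BNIP3/BNIP3L is lower in Granta-519 and higher in JeKo-1 shCycD1 libraries. The height of a ratio is not compared between the lines, whose tables appear to use different gene lengths.

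In JeKo-1 the members with the highest RPKM were those called lower. Of 8 members with a mean of 100 RPKM or more, 7 were called lower and none higher, all but LDHB, with a median log2 change of -0.59. Among all 806 genes at that level 44% were called lower and 22% higher, with a median of -0.16. Of the 24 members under 100 RPKM, 11 were called higher and 3 lower with a median of 0.29, against 37.8% higher and 26.7% lower of all 11060 genes there with a median of 0.11. The part of level in these changes was not tested.

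**Figure D4:**
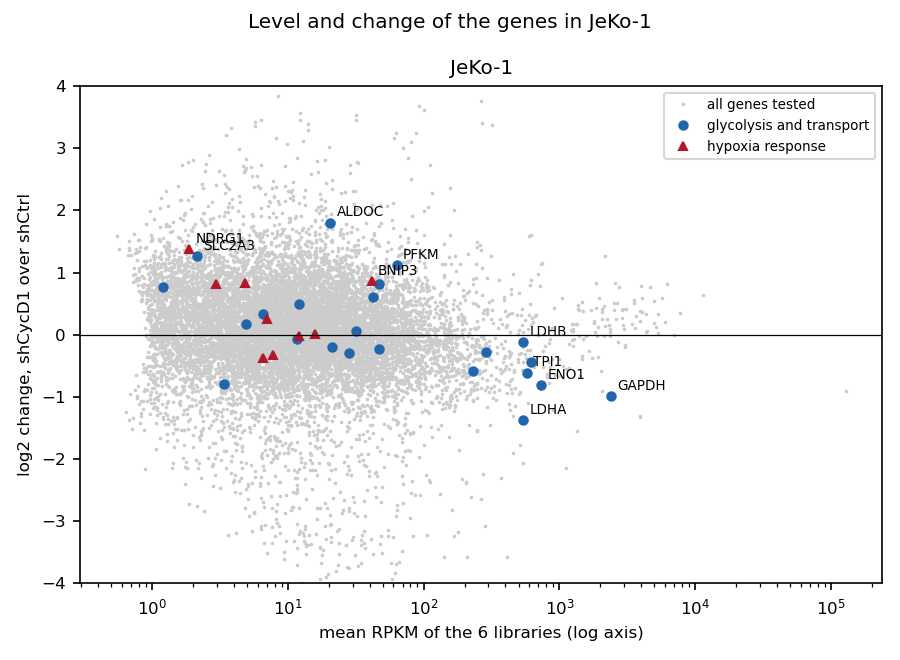
Mean RPKM of the 6 JeKo-1 libraries (log axis) is plotted against the log2 change of shCycD1 over shCtrl, with all genes tested in grey, glycolysis and transport genes as blue circles and hypoxia genes as red triangles; the change axis ends at ±4. The members at 100 RPKM or more lie below 0, LDHA at -1.37 and GAPDH at -0.99, while ALDOC, NDRG1 and SLC2A3 lie above 1.

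The spike-in scale changed the Granta-519 picture, and in JeKo-1 it ended most member calls without turning their sign. It moved the median of all genes in Granta-519 to 0.78, against 0.03 as deposited, and the members' median to 0.85. On that scale 24 members were called higher and 0 lower in Granta-519, with 7679 genes higher and 116 lower in all. Relative to that median LDHA stood at -0.73, EGLN3 at -0.65, GPI at -0.53, ENO1 at -0.41 and TPI1 at -0.38. In JeKo-1 the median of all genes was 0.03 with spike-in scaling, against 0.09 as deposited. Of the 11 higher and 10 lower member calls there, PFKM, ALDOC, SLC2A3 and NDRG1 remained called higher and GAPDH, ENO2 and LDHA lower. The others were not called on that scale. Which scale is right was not tested.

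**Figure D5:**
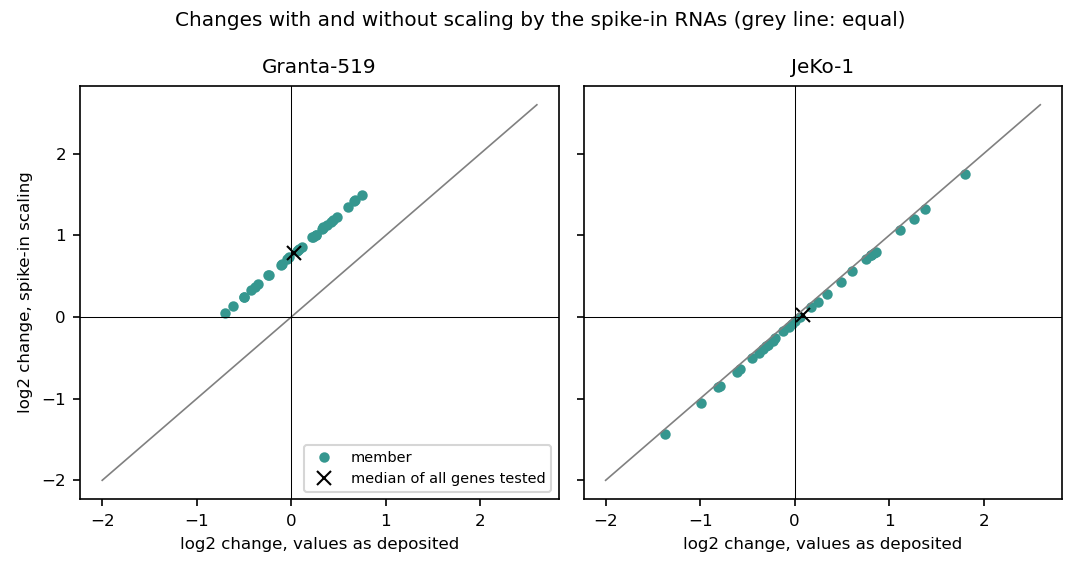
Each point is a member, with its log2 change as deposited on the x axis and with spike-in scaling on the y axis; the cross is the median of all genes tested and the grey line marks equal values. In Granta-519 all members lie above the line and above 0, and in JeKo-1 they lie close to it.

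Other genes of the same pathways, from lists drawn up by pathway, were counted the same way, and their counts stand against 22.4% higher and 18.2% lower of all genes in Granta-519 (median log2 change 0.03) and 36.7% and 27.8% in JeKo-1 (median 0.09). Of the other glycolytic enzymes and sugar carriers, 2 of 18 tested were called higher and 3 lower in Granta-519, and 4 of 17 higher and 9 lower in JeKo-1, with medians of 0.07 and -0.34. PKM, the pyruvate kinase that follows enolase, was called at -0.24 in Granta-519, against 0.51 with spike-in scaling, a call lost without any shCycD1 library or shCtrl 1 (-0.27 to -0.20). In JeKo-1 PKM had 425 ± 27.5 RPKM in shCycD1 libraries and 630 ± 24.4 RPKM in shCtrl libraries (SD, n = 3 each) and was at -0.57 (adjusted p = 0.00036). ENO3, the muscle enolase, and BPGM, which makes the bisphosphoglycerate of red cells, were lower in Granta-519 on the deposited scale (-0.56 and -0.38, against 0.19 and 0.37 with spike-in scaling) and in JeKo-1 (-1.19 and -0.69). The Granta-519 call of BPGM was lost without shCycD1 1 or 2 or shCtrl 3 (-0.37 to -0.33). PGAM2, the muscle mutase, was called higher in both lines, at 1.57 in Granta-519 and 1.68 in JeKo-1.

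Genes that bring pyruvate into mitochondria were called higher in 1 and lower in 3 of 12 in Granta-519, and higher in 2 and lower in 5 of 12 in JeKo-1, with medians of -0.11 and -0.23. PDHA1, the catalytic subunit of pyruvate dehydrogenase, was at -0.73 in Granta-519 as deposited and 0.02 with spike-in scaling. In JeKo-1 PDHA1 had 19.3 ± 1.15 RPKM in shCycD1 libraries and 48.7 ± 2.26 RPKM in shCtrl libraries (SD, n = 3 each; -1.31, adjusted p = 1.25e-05). DLAT, another subunit of that complex, and PDK3, a kinase that inhibits it, were at -0.32 and -0.47 in Granta-519 (0.43 and 0.29 with spike-in scaling) and at -0.73 and -0.93 in JeKo-1. MPC1, a subunit of the mitochondrial pyruvate carrier, was called in opposite directions, at 0.50 in Granta-519 and -0.58 in JeKo-1.

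The pentose phosphate pathway branches from glycolysis at the product of hexokinase and makes NADPH and ribose phosphate. Of its genes 0 of 11 were called higher and 7 lower in Granta-519 as deposited (none of the 7 with spike-in scaling), and 1 of 12 higher and 8 lower in JeKo-1, with medians of -0.49 and -0.45, against 18.2% and 27.8% of all genes called lower. TALDO1, TKT and PGD were at -0.64, -0.49 and -0.53 in Granta-519 (0.11, 0.26 and 0.23 with spike-in scaling) and at -0.87, -0.47 and -0.70 in JeKo-1. PRPS1, PRPS2 and TKTL1 were at -0.49, -0.58 and -0.49 in Granta-519 (0.27, 0.18 and 0.26 with spike-in scaling) and at -0.47, -1.09 and -1.16 in JeKo-1. TKTL1 had 0.448 ± 0.0885 RPKM in JeKo-1 shCycD1 libraries and 1.62 ± 0.301 RPKM in shCtrl libraries (SD, n = 3 each). So it was tested in JeKo-1 only through the group where it is high and had to differ. In Granta-519 TKTL1 had 0.851 ± 0.155 RPKM in shCycD1 and 1.39 ± 0.0887 RPKM in shCtrl libraries (SD, n = 3 each). It would not have been tested in Granta-519 either without its high shCtrl libraries. H6PD, the form of the first enzyme in the endoplasmic reticulum, was not called in Granta-519 (0.19, adjusted p = 0.49) and was called higher in JeKo-1 at 1.46.

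Of 33 other hypoxia-induced genes tested in Granta-519, 13 were called higher and 4 lower, and of 30 in JeKo-1, 13 higher and 5 lower, with medians of 0.16 and 0.23, against 22.4% and 36.7% of all genes called higher and medians of 0.03 and 0.09. DDIT4, an inhibitor of mTORC1 signalling, was at 0.42 in Granta-519 (adjusted p = 0.0463), a call lost without shCycD1 2 or 3 or shCtrl 1 or 2 (0.29 to 0.45). In JeKo-1 DDIT4 had 136 ± 15 RPKM in shCycD1 libraries and 18.6 ± 3.86 RPKM in shCtrl libraries (SD, n = 3 each; 2.85, adjusted p = 7.61e-06). MXI1, a MYC antagonist, was called higher at 0.72 in Granta-519 and 1.35 in JeKo-1, the histone demethylase KDM3A at 0.81 and 0.90, P4HTM at 0.64 and 1.34, the repressor BHLHE40 at 0.75 and 1.01, and KCTD11 at 0.65 and 0.82. P4HTM had 2.03 ± 0.25 RPKM in JeKo-1 shCycD1 libraries and 0.497 ± 0.0221 RPKM in shCtrl libraries (SD, n = 3 each), and was likewise tested there only through the group where it is high. The JeKo-1 call of BHLHE40 was lost without shCtrl 3 (0.92). SLC6A8, the creatine carrier, was tested in Granta-519 alone (1.18), and the demethylase KDM4B was at 0.01 in Granta-519 and called at 1.01 in JeKo-1. ERO1L, BHLHE41, SAP30 and HILPDA were called lower at -0.55, -0.33, -0.62 and -0.75 in Granta-519 (0.20, 0.43, 0.14 and -0.00065 with spike-in scaling) and at -1.39, -1.57, -1.13 and -0.79 in JeKo-1.

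Of 11 oxygen sensing genes and HIF subunits, 2 were called higher and 1 lower in Granta-519, and 3 higher and 3 lower in JeKo-1. HIF1AN, the asparaginyl hydroxylase that inhibits HIF1A, was called higher at 0.35 in Granta-519 and 0.51 in JeKo-1. CITED2, which competes with HIF1A for its coactivator, was called higher at 0.36 in Granta-519 and 0.95 in JeKo-1. CUL2, the scaffold of the VHL ligase, was not called in Granta-519 (-0.14, adjusted p = 0.189; 0.61 with spike-in scaling) and was called lower in JeKo-1 (-1.24, adjusted p = 2.26e-05). In Granta-519 the HIF1AN call was lost without any shCycD1 library or shCtrl 1 (0.34 to 0.39), and the CITED2 call without shCycD1 1 or 3 (0.36 and 0.32). Without replicate 3 of both Granta-519 groups, 9 genes of these 5 lists were called higher and 8 lower, against 18 and 18 with it. In JeKo-1 spike-in scaling ended the calls of PGD, MPC1, BPGM, DLAT, TKT, PRPS1, HIF1AN, KCTD11 and PKM without turning their direction.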

How the data were processed

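Per the labels' protocols, 12 libraries were made from total RNA with a stranded mRNA kit. The authors deposited 1 table per line, titled as RPKM, whose values are on a natural log scale. RPKM recovered from the deposited natural log values, times transcript length, summed to 1759466 to 1815663 in Granta-519 and 1540826 to 1592835 in JeKo-1 (375930 to 386313 and 343692 to 350665 if read as log2); the base is inferred, and JeKo-1 was also read as log2. Builds GRCh37 and hg19 and the tools TopHat2 2.1.1, FastQC and limma 3.9 appear in the submitters' processing notes. The counter, annotation and use of strand are not given in the sources used. The tables appear to use different gene lengths, so levels are not compared between lines, and levels of different Granta-519 genes are not compared.

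Groups and replicate numbers came from sample titles. Values were taken out of the log, the row with the highest mean was kept for each symbol (554 symbols had several), and R 4.3.3 with limma 3.58.1 (trended empirical Bayes) was run on log2(RPKM + 0.5), per line and jointly for the difference, with Benjamini-Hochberg adjustment over all genes tested. The pseudocount understates changes of low genes. The script was tested on simulated data. The series calls the 3 libraries of a group biological replicates. Members, lists and tests were chosen with earlier results of these data known. All 33 members are named; from the lists, up to 30 genes are named that were called the same way in both lines, called with a log2 change of 1 or more, or called in opposite directions, the largest first. Alternatives were pseudocounts of 0.1 and 1, no filter, a mean of 5 RPKM, quantile, median and spike-in scaling, GC correction, library weights, a replicate block, symbols on several rows left out, and leaving out each library.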

Additional observations from a re-analysis of the deposited data

Results flagged for a closer look

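The results below stand out because the joint test of the 2 lines called the change in Granta-519 minus the change in JeKo-1 at an adjusted p under 0.05 (limma). CCND1 differed by 0.55, and this call did not hold if JeKo-1 values were log2. Among the members that were lower in JeKo-1, the difference was 0.75 for GAPDH, 0.67 for LDHA, 0.54 for PGAM1, 0.43 for ENO1 and 1.01 for P4HA1. Among those higher in JeKo-1 it was -1.32 for ALDOC, -0.83 for PFKL, -0.74 for PFKM, -0.84 for SLC2A3 and -0.78 for NDRG1. NDRG1 met the minimum for testing in each line through its high shCycD1 libraries. BNIP3L, not called in JeKo-1, differed by 0.77.

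Among the other pathway genes, DDIT4 had the largest difference at -2.43 (adjusted p = 9.48e-06). H6PD differed by -1.27, KDM4B by -1.01, P4HTM by -0.70, MXI1 by -0.63 and CITED2 by -0.58, all with the higher change in JeKo-1 as deposited. P4HTM was tested in JeKo-1 only through its shCycD1 libraries, so it had to be higher there to enter the joint test. With spike-in scaling P4HTM, MXI1 and CITED2 turned to 0.11, 0.18 and 0.22 and were not called. BHLHE41 differed by 1.24, CUL2 by 1.10, MPC1 by 1.08, ERO1L by 0.84, TKTL1 (in JeKo-1 tested only through its shCtrl libraries) by 0.67, ENO3 by 0.63, PDHA1 by 0.58, PRPS2 by 0.52, SAP30 by 0.51, PDK3 by 0.46 and PKM by 0.33, all with the lower change in JeKo-1. The CITED2 call was lost without Granta-519 shCtrl 1 or JeKo-1 shCycD1 1 (-0.51 each). The PKM call was lost without Granta-519 shCycD1 1 (0.30) or JeKo-1 shCycD1 1 (0.29).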

How the results depend on the processing

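In Granta-519, against 8 members called higher and 5 lower, no filter gave 4 and 3, a mean of 5 RPKM gave 5 higher, spike-in scaling gave 24 and 0, and library weights gave 9 lower. Leaving out 1 library gave 2 to 7 higher and 3 to 7 lower, and leaving out replicate 3 of both groups gave 5 higher. In JeKo-1, against 11 and 10, a mean of 5 RPKM gave 6 higher and spike-in scaling gave 4 and 3; leaving out 1 library gave 9 to 11 and 8 to 10. For the difference, against 6 and 5, spike-in scaling gave 11 and 0, the replicate block with GC correction gave 11 higher, and a mean of 5 RPKM or the JeKo-1 table read as log2 gave 3 lower; leaving out 1 library gave 5 to 7 and 3 to 6. The other pathway lists, at 18 higher and 18 lower in Granta-519, gave 50 and 0 with spike-in scaling, 31 higher with library weights, and 9 and 8 without replicate 3 of both groups. Leaving out libraries gave 9 to 18 and 8 to 20. In JeKo-1, at 23 and 30, they gave 10 and 12 with spike-in scaling and 21 to 24 and 28 to 30 without 1 library. A core was in 32.7% of member windows in the last 150 bases, against 31.8% of all windows. The CCND1 difference lost its call at 0.55 with no filter, 0.38 with quantile normalization and 0.42 without replicate 3 of both Granta-519 groups, and turned to -0.16 with JeKo-1 as log2. Without 1 library it was 0.45 to 0.70.

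These values turned direction with spike-in scaling in Granta-519: GPI 0.25, PFKL 0.73, TPI1 0.40, GAPDH 0.51, PGK1 0.65, PGAM1 0.71, ENO1 0.37, LDHA 0.05, LDHB 0.64, EGLN3 0.13, PDHA1 0.02, ERO1L 0.20, BHLHE41 0.43, ENO3 0.19, SAP30 0.14, PRPS2 0.18, TKTL1 0.26, TALDO1 0.11, PDK3 0.29, PGD 0.23, BPGM 0.37, DLAT 0.43, TKT 0.26, PRPS1 0.27 and PKM 0.51. In the difference PFKM turned to 0.07, NDRG1 to 0.03, MXI1 to 0.18, P4HTM to 0.11 and CITED2 to 0.22. BNIP3L in JeKo-1 turned to 0.29 with GC correction, with or without the replicate block. The cause was not tested. A further 110 values changed sign with no call on either side. Over all genes, spike-in scaling called 7679 higher and 116 lower in Granta-519 (2840 and 2303 as deposited), 1447 and 1278 in JeKo-1 (4357 and 3303) and 3085 and 114 in the difference (2053 and 2410). Library weights called 3579 lower in Granta-519, and no filter 3241 higher in the difference. Leaving out shCycD1 1 in Granta-519 called 1700 higher, and leaving out replicate 3 of both groups 1534 higher and 1336 lower.

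Deviations of same-numbered libraries from their group means had r of 0.006, -0.124 and 0.033 in Granta-519. In JeKo-1 these r were 0.187, 0.095 and 0.103, against -0.102 to 0.001 for libraries of other numbers. Each JeKo-1 library thus correlated best with its own number. The labels do not say that a number marks a shared batch, so the main fits do not pair the libraries. Any replicate effect shared by the groups stayed in their spread. With the replicate block Granta-519 had 8 members called higher and 5 lower. JeKo-1 had 12 and 12 with it, and the difference 7 and 7. The block called ALDOC and ENO2 in Granta-519 and GPI, SLC16A1 and EGLN1 in JeKo-1, and did not call TPI1 (adjusted p = 0.0579), VEGFA (0.0786), DDIT4 (0.0591), HIF1AN (0.0705), PKM (0.0778) and BPGM (0.0511) in Granta-519 or the SLC2A3 difference (0.0589). It also called the differences of HK2, PFKP, BNIP3, ANKRD37 and DLAT. Over all genes the block gave 2285 higher and 1903 lower for Granta-519, and 4901 and 3806 for JeKo-1. RPKM tables give no depth, so low members such as PFKFB4, NDRG1 and EGLN3 carry a counting error that is not known here.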
